A study of Mus musculus with 9 samples.

Results

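The genes described here are those of the cell cycle and of DNA replication, followed while embryonic stem cells of the mouse (mESCs) were turned into neural cells with and without all-trans retinoic acid (RA). The list holds 38 genes and was divided by textbook role into 8 genes of G1 and the entry into S phase, 12 genes of S phase, 15 genes of G2 and mitosis (G2/M) and 3 inhibitors of cyclin-dependent kinases. All probes whose gene symbol was on the list were taken, which gave 75 of the 46643 probes and 37 of the 19403 genes that the arrays name. Ccnb1, the major mitotic cyclin, had no named probe, so its transcript is not analysed here and it enters only the count of promoters.

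Total RNA was hybridised to Illumina MouseWG-6 BeadChips, bead arrays that measure transcript levels, with 1 array for each of 9 conditions. Undifferentiated mESCs were taken on day of differentiation (DoD) 0 and embryoid bodies (EBs, floating aggregates of differentiating cells) on DoD 2. On DoD 8 there were 4 arrays of EBs, namely of the vehicle culture (C) and of cultures given RA at 1 nM (R9), 10 nM (R8) and 100 nM (R7). The 3 arrays of DoD 36 were of neurospheres grown from the C, R8 and R7 cultures. EBs were exposed to RA or vehicle between DoD 2 and DoD 6, so all DoD 36 cells had been without it for the rest of the culture. The cells were 1 mouse ESC line, written G6B-2 in the labels and B6G-2 in the methods, the vehicle was 0.1% ethanol in the labels and another solvent in the series text, and the last stage is called day 29 in the labels and DoD 36 in the study's methods. The RNA on an array was a mixture from 6 biological replicates, a number not given for R9, so no value here has a replicate error and no p-value was computed.

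A cell that divides passes through G1, copies its DNA in S phase and separates the copies in mitosis. In G1 the D cyclins with CDK4 and CDK6, and then the E cyclins with CDK2, release the E2F factors, which switch on the genes of replication, and in G2 the genes of mitosis are switched on through CHR elements and CCAAT boxes in their promoters. Proteins of the CDKN1 family hold the kinases back. Mouse ESCs are known for short G1 phases and rapid division, neural progenitors still divide, and neurons have left the cycle.

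Values are given as signals, recovered from the deposited log2 values and scaled so that all arrays shared 1 median across the 16146 probes that every array detected. A probe counts as detected where its signal before scaling was 29.1 or more, the background level, and a gene with several probes is given by its brightest one unless another is named. Differences between 2 arrays are on the log2 scale, the condition named first minus the other, and a gene is called higher or lower at 2-fold or more, and the percentage of all measured genes past the same mark is given where a comparison is first counted. As a yardstick for noise, the C and R9 arrays of DoD 8 differed with a robust SD of 0.150 on the log2 scale among the brightest probes (the top 10% by signal) and of 0.495 among the dimmest 10%, and any effect of 1 nM RA is inside these values. The 0.99 quantile of background probes lay between 24.7 and 32.2 on 7 arrays but at 56.0 for R8 and 76.6 for R7 on DoD 36, so signals under about that level are less certain there.

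The main probes of 33 of the 37 genes were detected on every array. The probe of Ccnb2, a mitotic cyclin, was not detected on any array. Ccna2, the cyclin of S phase and G2, was dim, with signals of 57.7 to 131 up to DoD 8, and it was below detection on all DoD 36 arrays. Kif11, a spindle motor, was detected on DoD 2 (31.7) and with R9 on DoD 8 (50.3) and on no other array. The absolute levels of Mcm4, Mcm5, Cenpa, Cdkn1a and Cdkn1c are approximate because the recovery of bright signals left several solutions, while their differences between arrays are not touched by this.

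The stage labels were set against marker genes. Of 7 measured pluripotency markers, 5 were at least 2-fold lower in DoD 36 C than in DoD 8 C (16.8% of all genes), among them Nanog and Pou5f1, while Klf4 was higher by 2.20 on the log2 scale. Of 9 measured neuronal markers 6 were higher (23.0% of all genes). Of 8 neural progenitor markers with a probe, 5 were detected in DoD 36 C, 6 in R8 and 6 in R7. Sox1 and Fabp7 were below detection on all 3 DoD 36 arrays, as they were on DoD 2 and on all DoD 8 arrays. Endoderm markers had a summed signal of 56621 in DoD 36 C and 1520.3 in DoD 8 C, so markers of non-neural cells stood on the array of the vehicle neurospheres. In such mixed samples, fewer cells of a type and less RNA per cell cannot be told apart.

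The promoters of the members differ by phase in the short motifs they hold, and 6 of them are shown because they belong to genes that carry the results below. RefSeq promoter sequences (mouse build GRCm38.p6, 250 bases before to 50 after the start) were at hand for 31 of the 38 genes. Both strands were searched for the CHR letters TTTGAA, the CCAAT box CCAAT and the E2F letters TTTCGCG or TTTGGCG or TTCCCGC, and capitals mark each match, on either strand.
Top2a, chr11:99024140-99024439 (minus strand): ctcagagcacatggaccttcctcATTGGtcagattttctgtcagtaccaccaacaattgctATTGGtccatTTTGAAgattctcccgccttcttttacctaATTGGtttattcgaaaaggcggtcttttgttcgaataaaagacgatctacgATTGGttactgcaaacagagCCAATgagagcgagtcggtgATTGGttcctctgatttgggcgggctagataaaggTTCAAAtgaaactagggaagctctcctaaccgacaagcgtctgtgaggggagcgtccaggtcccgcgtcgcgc
Cdk1, chr10:69352863-69353162 (minus strand): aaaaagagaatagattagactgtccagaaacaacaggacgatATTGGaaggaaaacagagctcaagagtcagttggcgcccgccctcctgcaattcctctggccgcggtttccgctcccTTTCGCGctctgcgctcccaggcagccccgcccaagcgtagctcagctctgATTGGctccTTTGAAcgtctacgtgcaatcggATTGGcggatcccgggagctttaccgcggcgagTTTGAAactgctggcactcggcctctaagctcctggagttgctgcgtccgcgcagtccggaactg
Plk1, chr7:122159185-122159484 (plus strand): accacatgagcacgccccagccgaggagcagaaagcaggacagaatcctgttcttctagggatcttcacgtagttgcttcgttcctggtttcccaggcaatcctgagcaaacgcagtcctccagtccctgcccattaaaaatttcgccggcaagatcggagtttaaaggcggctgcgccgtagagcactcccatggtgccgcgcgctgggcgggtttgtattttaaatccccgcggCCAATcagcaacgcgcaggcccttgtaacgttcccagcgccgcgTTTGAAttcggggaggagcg
Cdc20, chr4:118437294-118437593 (minus strand): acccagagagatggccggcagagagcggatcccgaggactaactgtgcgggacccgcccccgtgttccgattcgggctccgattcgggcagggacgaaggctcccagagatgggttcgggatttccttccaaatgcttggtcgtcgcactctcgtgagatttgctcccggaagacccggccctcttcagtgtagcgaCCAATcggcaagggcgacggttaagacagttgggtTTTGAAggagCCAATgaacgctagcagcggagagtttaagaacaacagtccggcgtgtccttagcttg
Mcm3, chr1:20820263-20820562 (minus strand): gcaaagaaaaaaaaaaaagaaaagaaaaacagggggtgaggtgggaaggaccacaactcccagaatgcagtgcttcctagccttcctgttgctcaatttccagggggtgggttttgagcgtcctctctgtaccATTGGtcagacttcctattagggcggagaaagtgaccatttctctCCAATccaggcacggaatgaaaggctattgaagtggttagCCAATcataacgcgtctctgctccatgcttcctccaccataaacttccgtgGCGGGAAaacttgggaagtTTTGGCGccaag
Mcm6, chr1:128359656-128359955 (minus strand): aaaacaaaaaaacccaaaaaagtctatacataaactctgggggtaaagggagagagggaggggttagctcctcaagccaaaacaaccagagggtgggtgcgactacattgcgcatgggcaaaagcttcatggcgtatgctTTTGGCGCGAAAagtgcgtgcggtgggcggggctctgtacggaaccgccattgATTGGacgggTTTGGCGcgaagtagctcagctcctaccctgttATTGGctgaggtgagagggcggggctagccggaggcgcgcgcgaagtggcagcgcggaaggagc

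Top2a, Cdk1, Plk1 and Cdc20, the G2/M genes, each held CHR letters and at least 1 CCAAT box. Of the 13 G2/M genes with a promoter sequence, 10 held both, against 7.97% of the 27025 genes in the promoter table. CHR letters stood in 10 of the 13 (20.2% of all genes) and CCAAT in 12 (41.1% of all genes). Mcm3 and Mcm6 held E2F letters and no CHR letters, and in Mcm6 a TTTGGCG and a TTTCGCG match on opposite strands overlap. E2F letters stood in 7 of 11 S-phase genes, 1 of 13 G2/M genes and 0 of 5 G1 genes, against 7.64% of all genes. The only window at hand for E2f1, a G1 gene, begins inside its protein-coding part. The sequence before that part was not searched, so E2f1 cannot be said to lack E2F letters. These matches are a description of the letters and were not tested for binding.

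**Figure D1:**
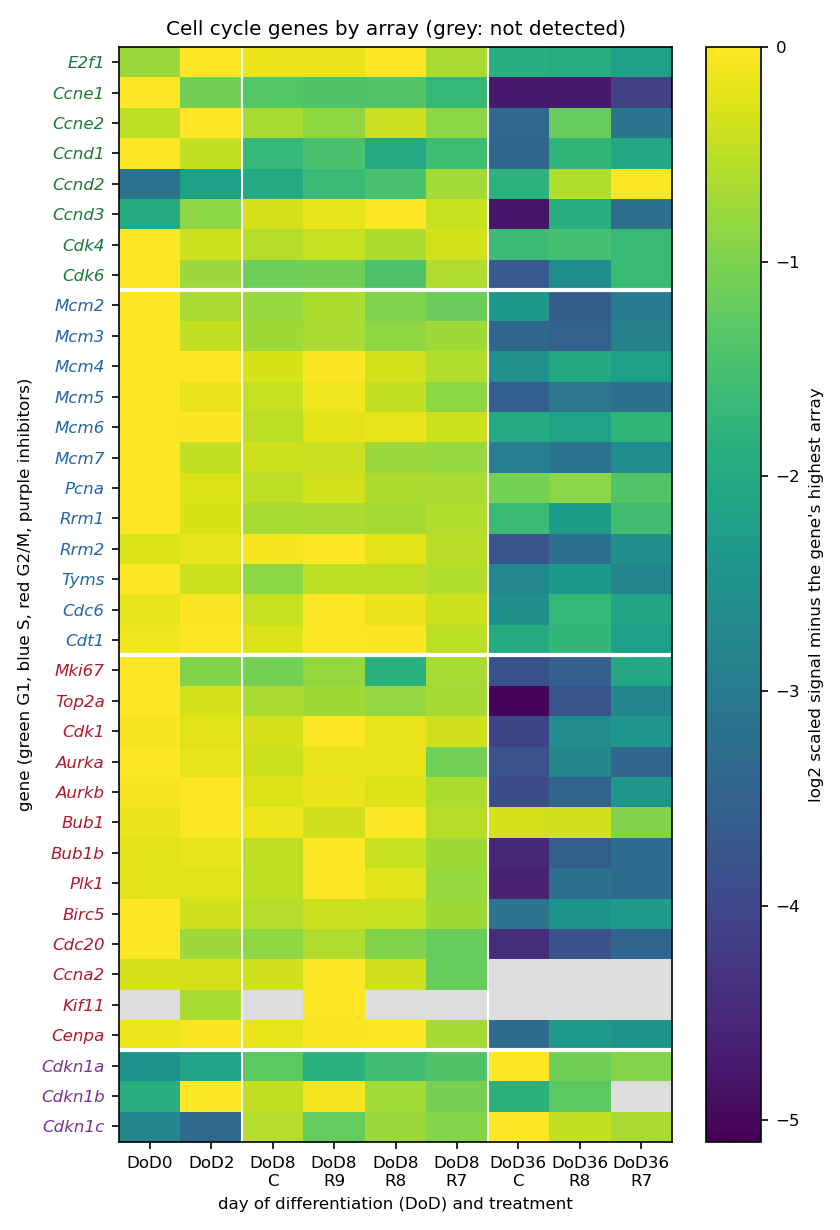
Log2 scaled signal of each detected member gene (rows, grouped by phase) on the 9 arrays (columns), relative to the gene's own highest array, with grey for arrays where the probe was not detected. The 3 DoD 36 columns are darkest for nearly all S-phase and G2/M genes, and Ccnd2, Cdkn1a and Cdkn1c run the other way.

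Across the course of differentiation, the DoD 36 arrays held the lowest values. All 12 S-phase genes and 12 of 13 detected G2/M genes had their lowest signal on a DoD 36 array, as had 7 of 8 G1 genes and 36.7% of the 14854 genes detected on at least 1 array. All 3 DoD 36 arrays lay below all 6 earlier arrays for 28 of the 33 members other than inhibitors, against 16.1% of all genes, with arrays below detection counted as equal. The 5 that overlapped were the D cyclins Ccnd1, Ccnd2 and Ccnd3, and of G2/M Bub1 and Kif11, which was below detection on 7 arrays. Of these 33, 18 had their highest signal on DoD 0, against 21.3% of all genes.

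From DoD 0 to DoD 8 without RA the medians of the phases differed little. Between DoD 2 and DoD 0 the median log2 difference was 0.06 for G1, -0.21 for S phase and -0.09 for G2/M genes, beside -0.08 over all genes. Between DoD 8 C and DoD 2 it was -0.20, -0.28 and -0.13 in the same order, beside -0.04. The signs for DoD 2 are not firm, since without scaling the G2/M median was 0.08.

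Single genes differed more. Against the yardstick for their signal, some genes lay below DoD 0 on DoD 2 by over 2 SD (17.9% of all genes). These were 4 of 8 G1, 5 of 12 S-phase and 4 of 12 G2/M genes. Above it by as much lay 3 G1 genes and no S-phase or G2/M gene (13.4% of all genes). Of the 3 inhibitors, Cdkn1a and Cdkn1b lay above DoD 0 by over 2 SD and Cdkn1c below it. Without scaling 6 of 12 S-phase genes lay below DoD 0, against 9 as scaled here. The median over all genes was 0.07 without scaling and -0.08 as scaled here. Over both steps together, Cdk6, a partner of the D cyclins, had 1131 in DoD 8 C and 2466 on DoD 0, and Mki67, the widely used label of cycling cells, had 2607 and 5426. Past 2-fold in a single step stood cyclins of G1 and inhibitors. Ccnd3, a D cyclin, was 2.15-fold higher on DoD 2 than on DoD 0, the only member higher by 2-fold there besides the inhibitor Cdkn1b (6.14% of all genes). Ccne1, the E cyclin that starts S phase with CDK2, was 2.16-fold lower on DoD 2, the only member lower (4.8% of all genes), and this call was lost without scaling (-0.95), under quantile normalization (-0.96) and with the mean of its probes (-0.43). Ccnd1, the main D cyclin of many growing cells, was 2.35-fold lower on DoD 8 C than on DoD 2, again the only member lower (4.78% of all genes). Ccnd2 was 1.88-fold higher on DoD 2 than on DoD 0, and past 2-fold without scaling (1.07), so the D cyclins did not share 1 direction over these days.

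Between DoD 8 and DoD 36 the vehicle cultures differed most, with far lower signals of all 3 phases. The median log2 difference, DoD 36 C minus DoD 8 C, was -2.13 for G1, -1.98 for S phase and -3.50 for G2/M genes, while the median over all genes was 0.15. At least 2-fold lower were 7 of 8 G1 genes, 10 of 12 S-phase genes and 11 of 12 measured G2/M genes, against 16.8% of all genes. No gene of the 3 phases was 2-fold higher, against 23.0% of all genes. The numbers of genes 2-fold lower were 27 to 29 of the members under every alternative processing tried, beside 28 here.

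The G2/M genes were lowest. Top2a, the topoisomerase that untangles chromosomes before they separate, had signals of 12231 on DoD 0, 9723 on DoD 2, 7807 with C, 7365 with R9, 6866 with R8 and 7580.3 with R7 on DoD 8, and on DoD 36 374 in C, 893 in R8 and 1812 in R7. It was 20.9-fold lower in DoD 36 C than in DoD 8 C, and its 6 earlier arrays all lay above its 3 DoD 36 arrays. Plk1, a kinase that drives entry into mitosis and spindle assembly, had signals of 13080.4 on DoD 0, 12844 on DoD 2, 10919 with C, 15245 with R9, 12828 with R8 and 8776 with R7 on DoD 8, and on DoD 36 620.5 in C, 1646 in R8 and 1524 in R7. Its DoD 36 C signal was 17.6-fold lower than that of DoD 8 C, and its highest array was R9 on DoD 8.

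Bub1b, a kinase of the spindle checkpoint, had signals of 4376 on DoD 0, 4494 on DoD 2, 3623 with C, 5114 with R9, 3780.2 with R8 and 3076 with R7 on DoD 8, and on DoD 36 221 in C, 435 in R8 and 514 in R7. Cdk1, the kinase of mitosis, had signals of 6268 on DoD 0, 5657 on DoD 2, 5257 with C, 6592 with R9, 5872 with R8 and 5108 with R7 on DoD 8, and on DoD 36 389 in C, 1064 in R8 and 1226 in R7. They were 16.4-fold and 13.5-fold lower in DoD 36 C than in DoD 8 C, with no overlap between the DoD 36 arrays and the earlier ones. Aurkb, the kinase of the chromosomal passenger complex, had signals of 4144 on DoD 0, 4359 on DoD 2, 3603 with C, 3904 with R9, 3608 with R8 and 2835 with R7 on DoD 8, and on DoD 36 295 in C, 394 in R8 and 812 in R7. Aurka, the kinase of the spindle poles, had signals of 6107 on DoD 0, 5430.2 on DoD 2, 4660.3 with C, 5342 with R9, 5446 with R8 and 2892 with R7 on DoD 8, and on DoD 36 438 in C, 899 in R8 and 569 in R7. Both were lower at DoD 36, by 12.2-fold for Aurkb and 10.7-fold for Aurka between the C arrays, and Aurka was also low with R7 on DoD 8.

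Cdc20, which activates the ubiquitin ligase that ends metaphase, had signals of 15731 on DoD 0, 9418 on DoD 2, 8696 with C, 10284 with R9, 8036 with R8 and 6872 with R7 on DoD 8, and on DoD 36 728 in C, 1095 in R8 and 1447 in R7. Mki67 had signals of 5426 on DoD 0, 2767 on DoD 2, 2607 with C, 3092 with R9, 1482 with R8 and 3411 with R7 on DoD 8, and on DoD 36 385 in C, 464 in R8 and 1338 in R7. Cdc20 was 11.9-fold lower and Mki67 6.78-fold lower in DoD 36 C than in DoD 8 C. Cenpa, the histone of the centromere, was 8.75-fold lower (about 16504 to 26460.1 up to DoD 8 and 2695 in C, 5157 in R8 and 4798 in R7 on DoD 36), and Birc5, the passenger protein survivin, was 5.77-fold lower, with signals of 6181 to 10296 up to DoD 8 against 1201 in C, 1835 in R8 and 2076 in R7 on DoD 36. Ccna2 was below detection on DoD 36 C, which gave a log2 difference of at most -1.64, and of at most -0.86 where detection was set at 50. Bub1, a partner of Bub1b at the kinetochore, was the exception with a dim probe whose signals ran from 46.4 to 91 over all arrays, and its difference of -0.20 was within the yardstick for that signal (0.456).

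Among S-phase genes the log2 differences ran from -3.70 for Rrm2 to -0.57 for Pcna. Rrm2, the regulated subunit of ribonucleotide reductase, which makes DNA precursors, had signals of 3790.2 on DoD 0, 4066 on DoD 2, 4434 with C, 4638 with R9, 3996 with R8 and 3211 with R7 on DoD 8, and on DoD 36 341 in C, 491 in R8 and 765 in R7. It was 13-fold lower in DoD 36 C than in DoD 8 C, and Rrm1, the large subunit of the same enzyme, was 1.96-fold lower (2351 against 4595). Pcna, the sliding clamp of the polymerases, was 1.48-fold lower (232 against 344). Rrm1 and Pcna were the 2 S-phase genes that did not reach 2-fold, though Rrm1 did without scaling (-1.13) and under quantile normalization (-1.28).

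The 6 subunits of the MCM helicase, which opens the DNA double strand, were all lower by 2-fold or more in DoD 36 C than in DoD 8 C. The log2 differences were -3.14 for Mcm5, -2.67 for Mcm3, -2.54 for Mcm7, -2.22 for Mcm4, -1.60 for Mcm2 and -1.46 for Mcm6. Mcm5 had signals of about 24946 on DoD 0, 22642 on DoD 2, 18286 with C, 23081 with R9, 18134 with R8 and 13731 with R7 on DoD 8, and on DoD 36 2077 in C, 2944 in R8 and 2705 in R7. Mcm2 had signals of 12163 on DoD 0, 7771 on DoD 2, 7014 with C, 7891 with R9, 6149 with R8 and 5399 with R7 on DoD 8, and on DoD 36 2321 in C, 1009.8 in R8 and 1520.3 in R7. The Mcm2 signal differed from that of Mcm5 in its order on DoD 36, where it was highest with C.

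Mcm3 had signals of 1783 to 3221 up to DoD 8 and of 307 in C, 284 in R8 and 436 in R7 on DoD 36. Mcm4 lay at about 17508 to 26272 up to DoD 8 and at about 4588 in C, 6587 in R8 and 5675 in R7 on DoD 36. Mcm6 had 4529 to 6399.9 up to DoD 8 and 1649 in C, 1456 in R8 and 1885 in R7 on DoD 36. Mcm7 lay at 6963 to 12066 up to DoD 8 and at 1594 in C, 1371 in R8 and 1950.1 in R7 on DoD 36. In none of them did an early array overlap a DoD 36 array.

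Cdc6 and Cdt1, which load the helicase at origins, were 4.29-fold and 3.22-fold lower. Cdc6 had signals of 1268 to 1725 up to DoD 8 and of 296 in C, 531 in R8 and 409.5 in R7 on DoD 36. Cdt1 had 4391 to 6240.1 up to DoD 8 and 1597 in C, 1891 in R8 and 1333 in R7 on DoD 36. Tyms, which makes thymidylate, was 3.64-fold lower, with 3061 to 5566 up to DoD 8 and 842 in C, 1065 in R8 and 816 in R7 on DoD 36. These 3 genes had the same split between early and late arrays as the helicase subunits.

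The G1 genes were the most varied. Ccnd3 had signals of 982 on DoD 0, 2109 on DoD 2, 3059.8 with C, 3363 with R9, 3838 with R8 and 2839 with R7 on DoD 8, and on DoD 36 136 in C, 1045 in R8 and 412 in R7. Its DoD 36 C signal was 22.4-fold lower than that of DoD 8 C, the lowest ratio among the main probes of the members, although its second, dim probe had a difference of -0.46 only. Ccne1 had signals of 6974 on DoD 0, 3232 on DoD 2, 2748 with C, 2617 with R9, 2669 with R8 and 2155 with R7 on DoD 8, and on DoD 36 259 in C, 259 in R8 and 408 in R7. It was 10.6-fold lower in DoD 36 C than in DoD 8 C and stayed low with RA.

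Ccne2, the other E cyclin, was dimmer, with signals of 372 on DoD 0, 529 on DoD 2, 332 with C, 294 with R9, 396 with R8 and 288 with R7 on DoD 8, and on DoD 36 51.9 in C, 234 in R8 and 61.9 in R7. Cdk6 had signals of 2466 on DoD 0, 1476 on DoD 2, 1131 with C, 1153 with R9, 922 with R8 and 1627 with R7 on DoD 8, and on DoD 36 197 in C, 404 in R8 and 779 in R7. Ccne2 was 6.39-fold and Cdk6 5.73-fold lower in DoD 36 C than in DoD 8 C. E2f1, a transcription factor of the entry into S phase, was 3.35-fold lower, with 1791 to 3056 up to DoD 8 and 822 in C, 798 in R8 and 678 in R7 on DoD 36. Cdk4, the other partner of the D cyclins, was 2.07-fold lower, just past the 2-fold mark and short of it on the 0.75 quantile scale (-0.93) and with the mean of its probes (-0.76), and its signals of 3515 in C, 3764 in R8 and 3346 in R7 on DoD 36 followed 6856 to 10620.2 before.

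Ccnd1 had signals of 11504 on DoD 0, 8362 on DoD 2, 3559 with C, 4143 with R9, 2923 with R8 and 3828 with R7 on DoD 8, and on DoD 36 1094 in C, 3389 in R8 and 2851 in R7. Ccnd2 had signals of 1645 on DoD 0, 3095 on DoD 2, 3651 with C, 4724 with R9, 5212 with R8 and 8814 with R7 on DoD 8, and on DoD 36 4142 in C, 9692 in R8 and 14472 in R7. Ccnd1 was 3.25-fold lower in DoD 36 C than in DoD 8 C, whereas Ccnd2 differed by 0.18 on the log2 scale and was the one member of the 3 phases that was not lower on DoD 36 C, except under quantile normalization, where all 8 G1 genes were lower and Bub1 was not. On DoD 36 the highest Ccnd2 value of the series was reached, with R7.

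**Figure D2:**
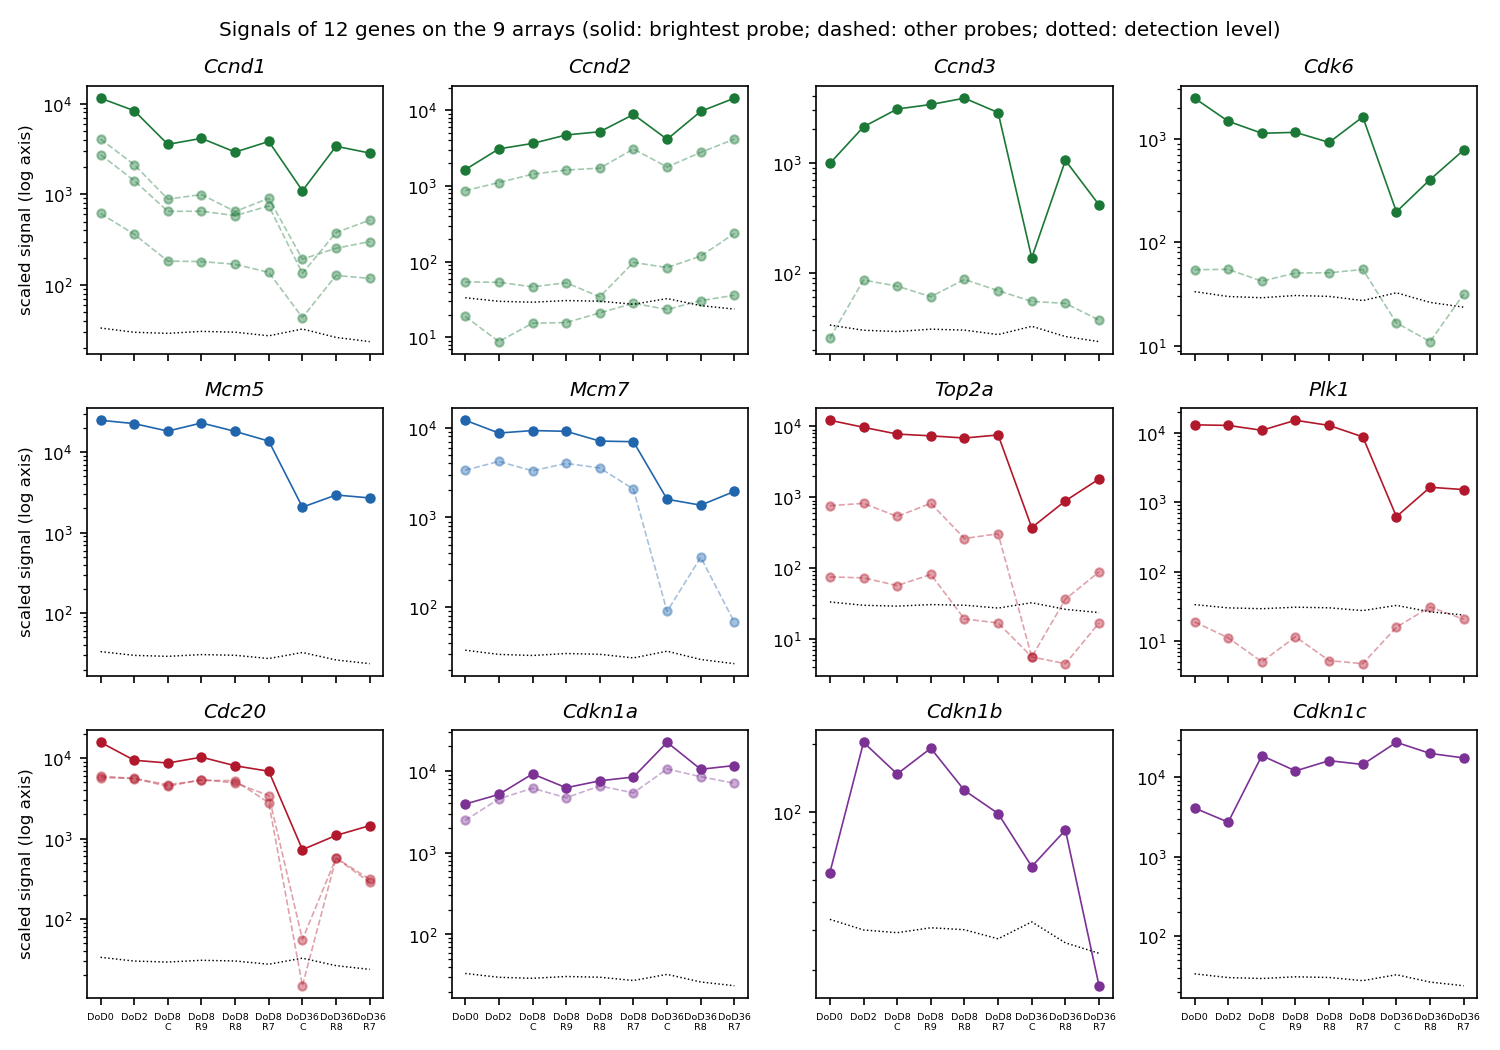
Scaled signals (log axis) of 12 member genes on the 9 arrays in order of day and dose, with the brightest probe as a solid line, other probes dashed and the detection level dotted. On their main probes, Top2a and Plk1 are low at DoD 36 and lie higher with R8 and R7 than with C. The main probes of Mcm5 and Mcm7 stay within 2-fold of C there. The second Mcm7 probe has 90.1 with C, 361 with R8 and 68.3 with R7. Ccnd2 is highest with R7.

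On DoD 8, while the RA had been gone for 2 days, most cell cycle genes of RA-treated EBs stayed within 2-fold of C on their main probes. The median log2 differences from C were 0.07 with R9, 0.05 with R8 and 0.00 with R7 for G1 genes. For S-phase genes they were 0.22, -0.05 and -0.18 at the same doses, and for G2/M genes 0.24, 0.09 and -0.33. All 3 comparisons share the C array. The medians over all genes were 0.05, 0.03 and -0.05.

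Past 2-fold stood 0 of 33 measured genes of the phases with R9 (2.19% of all genes higher, 1.51% lower) and 0 of 32 with R8 (3.21% higher, 2.08% lower). With R7 it was 1 of 32, Ccnd2 (5.61% higher, 3.49% lower). These counts are of main probes. Some dimmer probes passed 2-fold, in both directions. A second Mcm4 probe had 202.6 with C, 444.5 with R9, 422.9 with R8 and 89.1 with R7. Another Top2a probe had 537.2 with C and 262.3 with R8. With R8, Mki67 (-0.81) and Mcm7 (-0.39) lay below C by over 2 times the yardstick SD (6.19% of all genes). Ccnd2 (0.51) and Mcm6 (0.31) lay above it by as much (7.76% of all genes). Ccnd2 was 2.41-fold higher with R7 than with C, 1.43-fold higher with R8 and 1.29-fold higher with R9. Its order over the 4 arrays of DoD 8 followed the dose on the main probe. Of its other probes, 2 had R7 differences of 1.11 and 1.07, and the second of these, a dim one, was lowest with R8 (34.4, against 46.6 with C).

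With R7 on DoD 8, 11 of 12 G2/M genes lay below C by less than 2-fold, and 9 of 12 lay below it without scaling. The median over all genes was -0.05 as scaled here and 0.04 without scaling. Aurka had 2892 with R7 and 4660.3 with C, a log2 difference of -0.69. For Cenpa it was -0.51, for Cdc20 -0.34 and for Plk1 -0.32. These 4 of 12 lay below C by over 2 times the yardstick SD for their signal (11.3% of all genes), and Mki67 lay above C by as much (0.39, 10.5% of all genes). By the same measure 4 of 12 S-phase genes lay below C, namely Mcm5 (-0.41), Mcm7 (-0.41), Mcm2 (-0.38) and Rrm2 (-0.47), and 0 lay above it. With R9, 28 of 33 genes of the phases lay above C, and 23 without scaling. The median over all genes was 0.05 as scaled here and -0.02 without scaling. The yardstick itself was built from these 2 arrays, so no reading against noise is possible for R9. Pluripotency markers were 2-fold lower with R7 for 6 of 7 measured on DoD 8, and their summed signal was 25848 with R7 and 51941 with C. Their part in the small cell cycle differences was not tested.

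On DoD 36, weeks after the exposure, neurospheres from RA-treated EBs had higher signals of most listed G2/M genes and of some G1 genes than those from vehicle. The median log2 difference from C was 1.13 with R8 and 1.02 with R7 for G1 genes, and 0.94 with R8 and 1.22 with R7 for G2/M genes. For S-phase genes it was 0.21 with R8, -0.04 where arrays were scaled to the 0.75 quantile, and 0.24 with R7. The medians over all genes were -0.17 and -0.31, and both comparisons share the C array.

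With R8, 9 of the 31 measured genes of the phases were 2-fold higher than with C (11.5% of all genes) and 1 was lower (8.78% of all genes). With R7, 11 of 31 were higher (13.1% of all genes) and 0 lower (12.7% of all genes). Against the yardstick for their signal, 8 of 11 G2/M genes lay above C by over 2 SD with R8 (16.4% of all genes) and 9 of 11 with R7 (17.6% of all genes), and none of them lay below C by as much (27.9% of all genes with R8 and 35.5% with R7). Of the 12 S-phase genes, 3 lay above C by this measure at each dose, and below it lay 2 with R8 and 1 with R7. The number higher by 2-fold ran from 6 to 12 with R8 and from 10 to 15 with R7 over the alternative processings. The D cyclins, Cdk6, Top2a, Plk1 and Cdk1 were higher at both doses, and no member past 2-fold at one dose lay past 2-fold in the other direction at the other. Of the 11 calls with R8, inhibitors included, 5 held under all alternatives tried (Ccne2, Ccnd1, Ccnd3, Cdk1 and Plk1), and of the 12 with R7, 9 did (Ccnd1, Ccnd2, Cdk6, Mki67, Top2a, Cdk1, Aurkb, Bub1b and Plk1).

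All 3 D cyclins were higher with RA. Ccnd1 was 3.1-fold higher with R8 and 2.61-fold higher with R7. Its other 3 probes were all above C too, with log2 differences of 1.50, 1.54 and 0.40 for R8 and of 1.95, 1.43 and 0.64 for R7. Ccnd2 was 2.34-fold higher with R8 and 3.49-fold higher with R7, so its signals stood in the order of dose as on DoD 8. Ccnd3 was 7.66-fold higher with R8 and 3.02-fold higher with R7, but its dim probe had -0.06 and -0.56, and the probes of this gene thus did not tell the same.

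Cdk6 was 2.05-fold higher with R8 and 3.95-fold higher with R7, while Cdk4 differed by 0.10 and -0.07 only. Ccne2 was 4.5-fold higher with R8 and 1.19-fold with R7. Its signals of 51.9 in C and 61.9 in R7 were close to background, while that of 234 in R8 stood above it. Ccne1 differed by 0.00 with R8 and 0.65 with R7, and E2f1 by -0.04 and -0.28. In G1 the D cyclins and Cdk6 were past 2-fold at both doses as scaled here. With R8, Cdk6 and Ccnd2 were short of it on the 0.75 quantile scale (0.78 and 0.98), as was Cdk6 under quantile normalization (0.84) and Ccnd2 with the mean of its probes (0.79), and with R7 Ccnd3 was so with the mean of its probes (0.52). E2f1 and Cdk4 were not past 2-fold at either dose.

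Of the G2/M genes, Top2a was 2.39-fold higher with R8 and 4.84-fold higher with R7. Plk1 was 2.65-fold and 2.46-fold higher, and Cdk1 2.73-fold and 3.15-fold higher. These 3 passed 2-fold at both doses, except Top2a with R8 where the mean of its probes was taken (0.71). Aurka did so with R8 (2.06-fold, against 1.3-fold with R7, and 0.79 on the log2 scale with R8 where the 0.75 quantile was the scale), and Mki67 (3.48-fold), Aurkb (2.75-fold) and Bub1b (2.33-fold) with R7, where R8 gave 1.21-fold, 1.33-fold and 1.97-fold.

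The other G2/M genes lay above C without reaching 2-fold on their main probes. Birc5 differed by 0.61 and 0.79, and its other 2 probes by 1.11 and 1.11 with R8 and by 1.24 and 1.40 with R7. Cdc20 differed by 0.59 and 0.99, where its 2 other probes gave 3.37 and at least 4.13 with R8 and 2.48 and at least 3.14 with R7. Cenpa differed by 0.94 and 0.83. Bub1 was the one G2/M gene below C at both doses, by -0.04 and -0.65, at signals near background, and without scaling it lay above C with R8.

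On their main probes, S-phase genes lay on both sides of C with RA. Of the 12, 7 lay above C with R8 and 8 with R7. Arrays scaled to the 0.75 quantile gave 5 and 6, and unscaled arrays 10 and 11. As scaled here most of all genes lay below C, with all-gene medians of -0.17 (R8) and -0.31 (R7). Relative to these, the S-phase median was higher by 0.38 for R8 and 0.55 for R7. On the 0.75 quantile scale it was higher than the all-gene median by 0.39 and 0.56. Mcm2 was 2.3-fold lower with R8 than with C and 1.53-fold lower with R7, and the R8 call was lost without scaling (-0.89) and under quantile normalization (-0.95). Rrm1 was 1.55-fold lower with R8 and differed by 0.06 with R7. Rrm2 was 2.24-fold higher with R7 and 1.44-fold with R8, and the R7 call was lost on the 0.75 quantile scale (0.95) and with the mean of its probes (0.80). Mcm5 differed by 0.50 with R8 and 0.38 with R7, Mcm4 by 0.52 and 0.31, and Cdc6 by 0.85 and 0.47. Mcm3 gave -0.11 and 0.50, Mcm6 -0.18 and 0.19, and Mcm7 -0.22 and 0.29, so the subunits of 1 helicase lay on both sides of C as scaled here.

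The remaining S-phase genes were close to C. Pcna differed by 0.18 with R8 and -0.31 with R7, Tyms by 0.34 and -0.05, and Cdt1 by 0.24 and -0.26. Whether the phases differ in their response was not tested, since genes are not replicates of a condition.

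**Figure D3:**
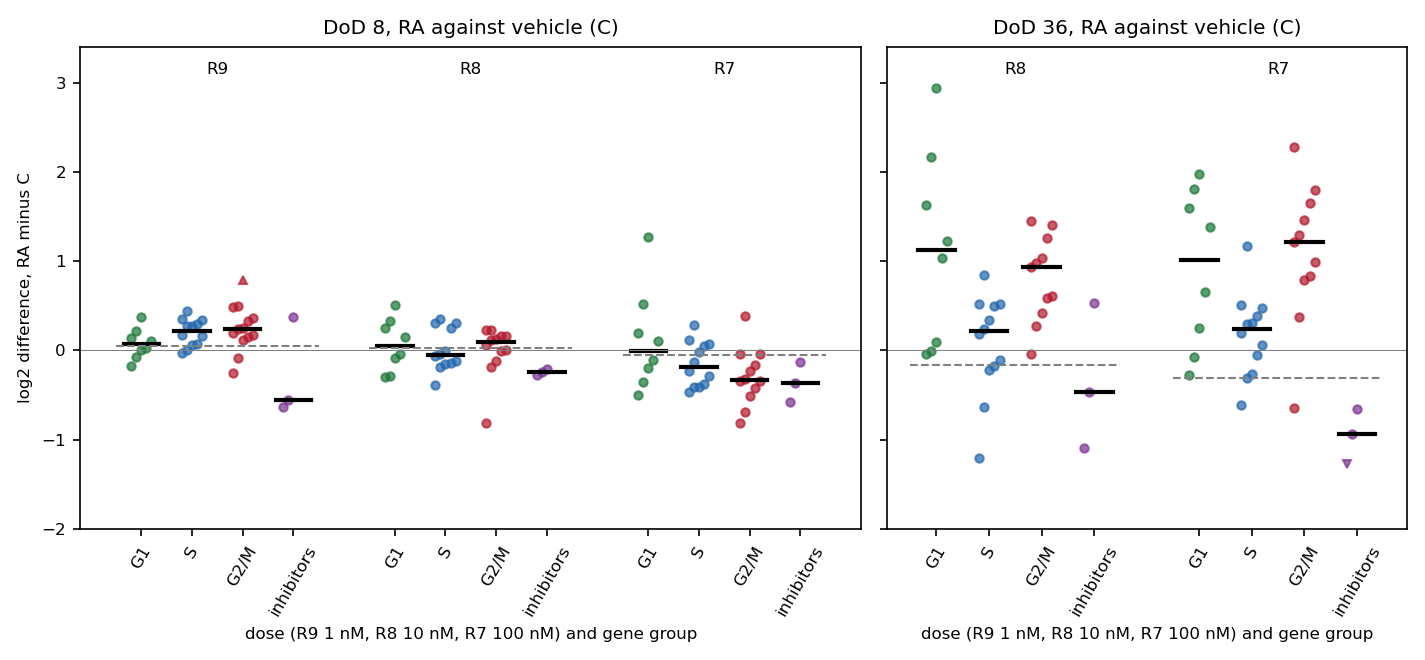
Log2 difference from vehicle of each measured member gene (points, by phase) for each RA dose on DoD 8 (left) and DoD 36 (right), with triangles for bounds, thick bars for group medians and dashed lines for the median over all genes. On DoD 8 all points but Ccnd2 with R7 lie within 1 log2 unit of C, and on DoD 36 the G1 and G2/M medians lie between 0.94 and 1.22 while the S-phase medians are 0.21 and 0.24.

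In the RA cultures too, the DoD 36 signals lay below those of DoD 8. Compared with EBs of the same dose on DoD 8, the median log2 difference of DoD 36 R8 was -1.03 for G1, -1.91 for S-phase and -2.53 for G2/M genes, and that of DoD 36 R7 was -1.42, -1.77 and -1.93. With R8, 26 of 32 genes were 2-fold lower than on DoD 8 (14.9% of all genes), and with R7 27 of 32 (14.7% of all genes). Top2a with R7, for instance, was 4.18-fold lower on DoD 36 than on DoD 8, where C had given 20.9-fold. Ccnd2 was 1.86-fold higher with R8 and 1.64-fold higher with R7 on DoD 36 than on DoD 8.

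The doses of DoD 36 could be set against each other directly. R7 minus R8 was 2-fold higher for Mki67 (1.53), Aurkb (1.04) and Top2a (1.02), 3 of 31 measured genes of the phases (7.74% of all genes). It was 2-fold lower for Ccne2 (-1.92) and Ccnd3 (-1.34), 2 of 31 (7.3% of all genes). The group medians were -0.20 for G1, 0.13 for S phase and 0.20 for G2/M genes. Neither count stands far from its share of all genes. On DoD 8, R7 minus R8 passed 2-fold for Mki67 alone, at 1.20 (3.77% of all genes higher, 2.72% lower), where its R8 signal of 1482 was the lowest of that day.

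Of the 3 inhibitors, Cdkn1a and Cdkn1c differed from the genes of the phases in their course. Cdkn1b was lower in DoD 36 C than in DoD 8 C, as most of those genes were, but not lower than on DoD 0 (57.2 against 53.8). Cdkn1a, the p21 protein that p53 induces, had signals of about 3920.5 on DoD 0, 5140.2 on DoD 2, 9150.3 with C, 6203 with R9, 7543 with R8 and 8388 with R7 on DoD 8, and on DoD 36 22268 in C, 10419 in R8 and 11597 in R7. It was 2.43-fold higher in DoD 36 C than in DoD 8 C (0.93 on the log2 scale under quantile normalization), and its second probe had a log2 difference of 0.78. With RA on DoD 36 it was 2.14-fold lower with R8 and 1.92-fold lower with R7 than with C, and the second probe gave -0.32 and -0.58. The R8 call was lost without scaling (-0.79), under quantile normalization (-0.53) and with the mean of both probes (-0.71). The highest Cdkn1a signal was on DoD 36 C, as was that of 3789 of the 14854 genes detected on at least 1 array. On the same array 18 of the 33 members of the phases had their lowest signal, against 10.4% of all genes. A link between the 2 was not tested.

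Cdkn1c, the imprinted inhibitor p57, had signals of about 4110.0 on DoD 0, 2728 on DoD 2, 18816 with C, 12082 with R9, 16257 with R8 and 14573 with R7 on DoD 8, and on DoD 36 27705 in C, 20061 in R8 and 17606 in R7. It was 6.9-fold higher in DoD 8 C than on DoD 2 (6.1% of all genes were 2-fold higher), at a time when the genes of the phases were still close to their DoD 2 level. Below C it lay with every RA dose, by -0.64, -0.21 and -0.37 on DoD 8 with R9, R8 and R7. The R8 difference of that day was within 2 times the yardstick SD. On DoD 36 Cdkn1c lay below C by -0.47 with R8 and -0.65 with R7, beside -0.17 and -0.31 over all genes. As scaled here each difference was short of 2-fold, but under quantile normalization R9 gave -1.03. Cdkn1b, the inhibitor p27, was dim, with signals of 53.8 on DoD 0, 202 on DoD 2, 147 with C, 191 with R9, 124 with R8 and 98.1 with R7 on DoD 8, and on DoD 36 57.2 in C, 82.9 in R8 and 17 in R7. It was 3.76-fold higher on DoD 2 than on DoD 0 and 2.57-fold lower in DoD 36 C than in DoD 8 C, and with R7 on DoD 36 it was below detection. With detection set at 100, which its signals on DoD 0 and in DoD 36 C do not reach, the differences were at least 0.82 and at most -0.39.

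Many other genes of the same pathway are on the arrays. Of 37 measured further G2/M genes, 33 were 2-fold lower in DoD 36 C than in DoD 8 C (16.8% of all genes), with a median log2 difference of -2.68, and 0 were higher (23.0% of all genes). The lowest were Smc4, a condensin subunit (-4.48, a bound), Melk, a mitotic kinase (-4.42, a bound), and Aspm, a spindle pole protein (-3.60, a bound). Of 35 further S-phase genes, 27 were lower and 1, Mcm8, was higher (1.27), with a median of -1.74. Lowest among them were Cdc45, a helicase cofactor (-4.98, a bound), Mcm10 (-3.66) and Uhrf1, which couples DNA methylation to replication (-3.42).

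Of 15 further G1 genes, 7 were lower and 1, Rbl2, was higher in DoD 36 C than in DoD 8 C, and 5 of the 15 lay above 0. Their median was -0.81, against -2.13 for the listed G1 genes. E2f2 was lowest (-3.26, a bound), and Rbl2, the pocket protein p130 of resting cells, was higher by 1.79. Of 9 further inhibitors and p53 targets, Btg1, an antiproliferative protein, was higher (1.23) and Gadd45b lower (-2.56), and the other 7 stayed within 2-fold.

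With RA on DoD 36, 6 of 33 further G2/M genes were 2-fold higher with R8 (11.5% of all genes) and 9 of 32 with R7 (13.1% of all genes), and 0 were lower at either dose (8.78% and 12.7% of all genes), with medians of 0.45 and 0.74. Melk (1.59) and Smc4 (1.38), both bounds, and Spc25 of the kinetochore (1.07) led with R8. Aspm (1.84, a bound), the mitotic phosphatase Cdc25c (1.36) and the G2/M transcription factor Foxm1 (1.35) led with R7. The further S-phase genes had medians of 0.04 and -0.04, with 1 of 35 higher with R8 and 2 higher and 2 lower with R7, all under the shares of all genes. Cdc45 was the one of them above C by 2-fold at both doses (2.81 and 1.48, bounds).

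The 15 further G1 genes had medians near those over all genes with RA. They were -0.02 with R8 and -0.30 with R7, beside -0.17 and -0.31 over all genes, and 9 of the 15 lay below C at each dose as scaled here. Only E2f2 was 2-fold higher, at both doses (1.85 and 2.11, bounds), and Cdc25a, a phosphatase that activates CDK2, was 2-fold lower with R8 (-1.02). Of 9 further inhibitors and p53 targets, 7 lay below C at each dose, with medians of -0.21 and -0.31. These medians are close to those over all genes (-0.17 and -0.31), most of which lay below C as well. Btg1 was higher with R8 (2.53), Cdkn2c, the inhibitor p18 of CDK4 and CDK6, at both doses (1.19 and 2.12), and Gadd45a, a stress protein induced by p53, was lower with R7 (-1.22).

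Markers of cell types differed between the same arrays. Neural progenitor markers had a summed signal on DoD 36 of 11441 in C, 31967 in R8 and 45198 in R7, and 5 of 6 measured were 2-fold higher than C at each dose, with Sox1 and Fabp7 below detection on all 3. Astrocyte markers had 1252, 9431 and 40238 in the same order, with 6 of 6 measured 2-fold higher at each dose. Mesenchyme markers had 5973, 11988 and 33968, and endoderm markers 56621, 49985 and 20901.

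Stress genes had a summed signal of 82231 in C, 46602 in R8 and 31195 in R7. Their median signal was instead highest in R8 (3629, against 2681 in C and 1786 in R7). Widely expressed genes had sums in the same order as the stress genes (141629 in C, 119418 in R8 and 100026 in R7). Neuronal markers were highest with R8 (11114, against 5822 with C and 3512 with R7). The part of these markers, and of the cells they mark, in the cell cycle differences was not tested.

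**Figure D4:**
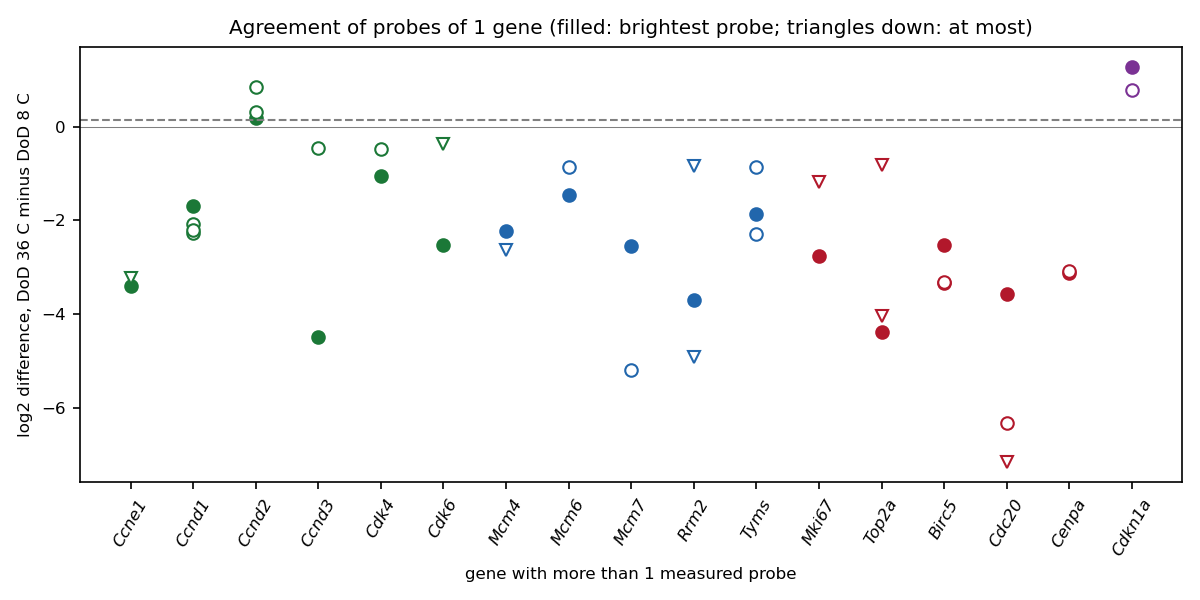
Log2 difference, DoD 36 C minus DoD 8 C, for each measured probe of the member genes with more than 1 measured probe, with the brightest probe filled, other probes open and downward triangles for upper bounds. Every probe but those of Ccnd2 and Cdkn1a lies below 0, and the sizes differ most for Ccnd3, Mcm7 and Cdc20.

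Several probes of 1 gene gave the same direction in the DoD 36 C to DoD 8 C comparison but not the same size. The second probe of Mcm7 had 90.1 in DoD 36 C against 3304 in DoD 8 C, a log2 difference of -5.20, where the main probe gave -2.54. With RA on DoD 36 this second probe gave 2.00 with R8 and -0.40 with R7, and the main probe -0.22 and 0.29. The other 2 probes of Cdc20 differed by -6.33 and at most -7.17, where the main probe gave -3.58. The probes of Birc5 and Cenpa lay closer together, at -3.34, -3.31 and -2.53 for Birc5 and at -3.08 and -3.13 for Cenpa.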

How the data were processed

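The authors hybridised 1 pooled RNA sample per condition to MouseWG-6 arrays and normalised raw values by median centring in GeneSpring. Per the file, the deposited values are on a log2 scale, each reduced by an array constant and a probe baseline. A second deposited table, whose 9 signal columns carry names that match no sample, was not used in any step.

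With the array constants removed, every probe follows whole steps of 0.1 signal units from a floor of 5.0, and these steps gave back its signal. Steps counted as whole within 0.002 steps or 1.5e-06 of the value. Among 46643 probes the fit was exact for 20134, exact given a floor value for 19117 and approximate for 1142 (2.45%), while 6250 never left the floor. The step size was read from the values and not stated by the authors. The recovery was tested on simulated data.

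The detection signal of 29.1, applied before scaling, is the median, across the arrays, of the 0.99 quantile among probes at the floor on 6 or more other arrays. It passed 20737 to 23008 probes per array. Arrays were scaled to a common median over 16146 probes. A gene is its probe with the highest mean log2 signal. Where 1 of 2 arrays was below detection the difference is a bound, and where both were there is none. With 1 array per condition the number of arrays limits the precision, and differences have no test. Symbols are those of the platform annotation, checked by gene identifier for 32722 probes and by accession for 11.

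The members and all gene lists were chosen with earlier results of these data known. The genes named are all members, with array values for those 2-fold different in at least 1 comparison (for some, the range of the 6 arrays up to DoD 8 and each DoD 36 value), and up to 3 further pathway genes per list, comparison and direction. Alternatives were the 0.75 quantile of all probes as scale, no scaling, quantile normalization, detection at 50 or 100, no detection limit, and the mean of a gene's probes. Python 3.11.15 with numpy 2.4.6, pandas 2.3.3 and numba 0.67.0 was used.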

Additional observations from a re-analysis of the deposited data

How the results depend on the processing

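No replicate error exists, since each condition has 1 array, and no paired analysis was possible because the labels carry no replicate numbers. Of the 24 group medians (3 phases in 8 comparisons), each under 7 alternatives, 157 of 168 values stayed within the spread between the C and R9 arrays of DoD 8, and no difference past 2-fold changed its direction. Of 59 member differences past 2-fold over the 8 comparisons, 44 stayed past it under all 7 alternatives and 15 did not under at least 1. The 11 group medians outside the C to R9 spread all belong to comparisons with DoD 36 arrays. Without scaling, the R8 medians against C were 1.44 for G1, 0.52 for S phase and 1.24 for G2/M genes, and the R7 medians 1.48, 0.70 and 1.68. At a detection signal of 100 the G1 median was -1.72 for DoD 36 C against DoD 8 C and 1.38 for R7 against C. With the mean of a gene's probes the G1 median for R7 was 0.59. With no detection limit the G2/M medians were 0.60 for R8 and 0.91 for R7, since genes at the floor then entered. On the scale of the 0.75 quantile the S-phase median for R8 was -0.04, beside 0.21, and the all-gene medians were -0.43 for R8 and -0.54 for R7, beside -0.17 and -0.31, and 0.14 and 0.16 without scaling. Of all genes past 2-fold, 56.6% were higher with R8 and 50.8% with R7, against 35.3% and 33.2% on the 0.75 quantile scale and 80.7% and 84.9% without scaling. For DoD 2 against DoD 0 the share was 56.1%, and 72.8% without scaling, and for R9 on DoD 8 59.2% and 47.1%. Without scaling the G2/M median for DoD 2 was 0.08, beside -0.09, and the G1 median for R9 -0.01, beside 0.07. Dim probes (Ccne2, Bub1, Ccna2, Kif11 and Cdkn1b) are limited by their signal over background.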
